A study of Mus musculus with 24 samples.

Results

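The genes described here encode chaperones, disulfide-forming foldases and cofactors of the endoplasmic reticulum (ER), together with Xbp1, a transcription factor that controls many of them. They are Hspa5, Hsp90b1, Manf, Sdf2l1, Creld2, Pdia4, Pdia6, Dnajc3, Calr and Xbp1, 10 of the 17537 genes listed in at least 1 library. They were chosen by symbol with earlier results of these data known, so the shares of them called are descriptions and not tests. All 10 were found in all 24 libraries and all 10 passed the filter on low values, with between 128 and 13851 expected counts per library. RNA was sequenced from the liver of gavaged C57BL/6 males of 20 to 30 g. The DE group was given 2500 mg/kg body weight of DEHP, di(2-ethylhexyl) phthalate, a plasticiser and rodent peroxisome proliferator, together with 1 g/kg of ethanol. The DEHP group received 2500 mg/kg DEHP, the EtOH group 1 g/kg ethanol, and the CT group 0.5% CMC, the vehicle. Each group had 6 libraries, while the labels describe 12 mice per group and say nothing on pooling, duration of treatment or time of collection. CMC is named for the CT group alone, so in comparisons with CT a carrier effect cannot be told apart from treatment if the other groups were given none.

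Proteins that enter the secretory pathway are folded in the ER, and hepatocytes secrete most plasma proteins, so liver keeps a large supply of ER chaperones. When unfolded proteins build up, the sensors IRE1, ATF6 and PERK start the unfolded protein response: IRE1 splices the Xbp1 transcript to give an active factor, cleaved ATF6 enters the nucleus, and PERK slows translation. Cleaved ATF6 and spliced XBP1 act through short promoter sequences, the best known being the ER stress response element (ERSE), and raise chaperone transcripts such as Hspa5. These sensors and factors are regulated after transcription, so their transcript levels do not measure their activity.

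Libraries held 7324793 to 8016662 expected counts, and 10697 genes were tested. The hepatocyte markers Alb, Apoa1, Ttr, Serpina1c, Fgb and Cps1 summed to between 37850 and 71491 FPKM (reads scaled to transcript length and library size) in every library. In 3 libraries transcripts of other tissues stood out. Skeletal muscle markers, a list of 8 genes, summed to 4030 FPKM in DE 6 and 5365 FPKM in CT 1 and to at most 4 FPKM elsewhere, and 12 pancreatic acinar markers summed to 681 FPKM in DEHP 6 and to at most 38.3 FPKM elsewhere. Where a member's call changed without these 3 libraries, both values are given. Since the labels tie no library to an animal, the p-values reflect the spread among these libraries, part of which may be technical.

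The promoters show how many of these genes carry the same element, and the sites found are printed for that reason. RefSeq promoter windows (GRCm38.p6, 250 bases before to 50 after the start site) were on hand for 9 members, all except Manf. The ERSE was searched on both strands as the letters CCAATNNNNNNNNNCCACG, where N is any base. It was found in 6 of the 9 windows, at 7 sites, against 39 of all 32851 windows (0.119%). Of the other ER pathway genes, 4 of the 62 with a window held it. Since the ERSE is known as an element of chaperone genes such as Hspa5, these shares are a description and not a test. In the sites the fixed ends are in capitals, each is written 5′ to 3′ on the strand that reads CCAAT first, and positions count from the start site, negative upstream.
Hspa5, chr2:34772025-34772043, -65 to -47, same strand as the gene: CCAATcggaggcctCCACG
Hsp90b1, chr10:86705638-86705656, -212 to -194, same strand as the gene: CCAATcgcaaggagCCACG
Hsp90b1, chr10:86705533-86705551, -107 to -89, opposite strand: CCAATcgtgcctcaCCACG
Creld2, chr15:88819520-88819538, -126 to -108, opposite strand: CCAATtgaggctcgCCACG
Pdia6, chr12:17266491-17266509, -98 to -80, same strand as the gene: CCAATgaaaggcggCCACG
Dnajc3, chr14:118937827-118937845, -105 to -87, same strand as the gene: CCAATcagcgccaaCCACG
Calr, chr8:84847075-84847093, -162 to -144, opposite strand: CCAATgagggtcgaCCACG

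No exact match lay in the windows of Sdf2l1, Pdia4 and Xbp1. Sites that differ from the fixed letters were not searched for in any window. Of 2 related motifs searched in the same way, the ERSE-II letters ATTGG and CCACG, 1 base apart, were in 0 of the 9 windows and 0.0365% of all windows, and the core letters of the unfolded protein response element, TGACGTGG, in 0 of 9 and 0.676%. Among the other pathway genes ERSE-II letters were in the windows of Herpud1 and Dnajb11, and ERSE letters in those of Derl3, Canx, Ero1b and Syvn1. A match is a run of letters and not evidence of a bound factor. The whole windows of 4 members follow, on the gene's own strand with the ERSE ends in capitals (written there as CGTGG and ATTGG where the site lies on the opposite strand). Hspa5, Hsp90b1 and Creld2 are shown because their transcripts were higher in DE than in EtOH libraries, and Pdia6 because it holds the same letters and its transcript was not called in that comparison. Calr and Dnajc3, not shown, also hold the letters and were not called there. Pdia4, whose window holds no match, was called higher.
Hspa5, chr2:34771840-34772139, plus strand: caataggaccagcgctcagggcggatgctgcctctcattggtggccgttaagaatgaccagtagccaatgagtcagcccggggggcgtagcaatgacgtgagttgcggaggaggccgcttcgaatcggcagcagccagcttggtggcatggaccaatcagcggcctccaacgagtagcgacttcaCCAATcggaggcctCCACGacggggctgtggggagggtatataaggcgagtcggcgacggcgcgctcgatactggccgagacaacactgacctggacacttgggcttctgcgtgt
Hsp90b1, chr10:86705395-86705694, minus strand: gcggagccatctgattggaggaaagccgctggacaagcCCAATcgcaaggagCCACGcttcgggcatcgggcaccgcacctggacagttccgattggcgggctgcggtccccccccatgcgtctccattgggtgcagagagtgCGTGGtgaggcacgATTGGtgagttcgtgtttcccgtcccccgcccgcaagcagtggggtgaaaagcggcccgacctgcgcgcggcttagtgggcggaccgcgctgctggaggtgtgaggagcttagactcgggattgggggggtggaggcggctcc
Creld2, chr15:88819396-88819695, plus strand: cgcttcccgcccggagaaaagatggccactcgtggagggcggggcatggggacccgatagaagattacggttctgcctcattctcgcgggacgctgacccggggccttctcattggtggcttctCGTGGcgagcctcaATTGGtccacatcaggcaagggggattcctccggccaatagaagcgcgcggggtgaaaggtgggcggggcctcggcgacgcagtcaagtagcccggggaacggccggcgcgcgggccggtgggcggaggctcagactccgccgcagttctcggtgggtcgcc
Pdia6, chr12:17266339-17266638, plus strand: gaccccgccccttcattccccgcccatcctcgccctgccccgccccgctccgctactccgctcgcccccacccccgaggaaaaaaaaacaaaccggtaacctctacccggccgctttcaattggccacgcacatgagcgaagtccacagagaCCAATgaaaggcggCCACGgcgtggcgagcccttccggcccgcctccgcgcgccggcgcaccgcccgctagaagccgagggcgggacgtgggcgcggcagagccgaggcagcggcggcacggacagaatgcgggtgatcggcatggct

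**Figure D1:**
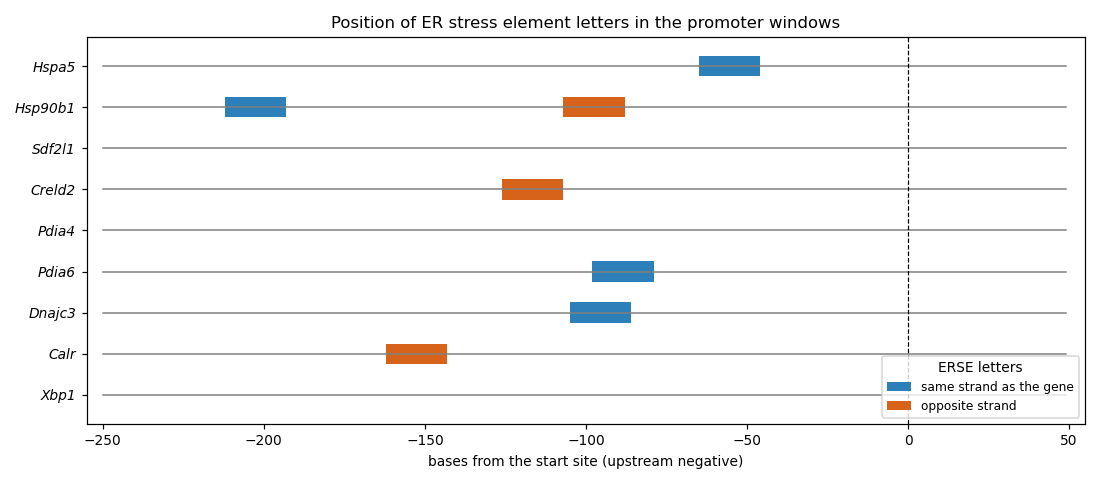
Position of the ERSE letters in the RefSeq promoter windows of 9 members, in bases from the start site (x axis, upstream negative, dashed line at the start). Blue boxes read CCAAT first on the gene's strand and orange boxes on the opposite strand; 6 windows hold 7 sites, and Sdf2l1, Pdia4 and Xbp1 hold none.

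In FPKM, which is per length and so allows genes to be compared, Calr (mean over the 24 libraries 527 FPKM) and Hspa5 (408 FPKM) were the most abundant members. Hsp90b1 (273 FPKM), Pdia6 (142), Pdia4 (92.9), Xbp1 (82.7), Sdf2l1 (60.5), Manf (57.9), Creld2 (43.7) and Dnajc3 (42.5) followed. The ranges over libraries of every 2 neighbours in this order overlapped. The genes differed in how far they moved. The highest library of Creld2 had 7.2 times the level of the lowest, that of Manf 5.25 times and that of Hspa5 4.17 times, against 1.69 times for Calr and 1.87 times for Pdia6.

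Hspa5 encodes BiP, the main Hsp70 chaperone of the ER (NCBI gene 14828, chromosome 2, 34772090 to 34776529). Its lowest, median and highest levels were 360, 582 and 726 FPKM in DE and 273, 358 and 553 FPKM in DEHP. They were 174, 229 and 300 FPKM in EtOH and 287, 404 and 624 FPKM in CT. Every DE library lay above every EtOH library, whereas EtOH and CT overlapped through CT 4, the lowest of CT. CT itself was spread widely, with CT 1, 2 and 3 at 617, 624 and 465 FPKM and CT 4, 5 and 6 at 287, 344 and 322 FPKM.

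Hsp90b1 encodes GRP94, the ER member of the Hsp90 family (gene 22027, chromosome 10, 86690841 to 86705444). It ran from 222 over 304 to 484 FPKM in DE and from 168 over 234 to 371 FPKM in DEHP (lowest, median, highest). In EtOH it ran from 162 over 213 to 269 FPKM and in CT from 237 over 298 to 379 FPKM. All 4 groups overlapped. Calr encodes calreticulin, a calcium-binding lectin chaperone for glycoproteins (gene 12317, chromosome 8, 84842088 to 84846931). Its medians lay close together, at 581 FPKM in DE (466 to 632), 480 FPKM in DEHP (374 to 562), 518 FPKM in EtOH (471 to 576) and 513 FPKM in CT (467 to 615).

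The foldases Pdia4 and Pdia6 belong to the protein disulfide isomerase family. Pdia4 (gene 12304, chromosome 6, 47796141 to 47813512) ran from 89.3 over 120 to 149 FPKM in DE and from 78.8 over 89.6 to 120 FPKM in DEHP. It ran from 56.6 over 64.8 to 82.8 FPKM in EtOH and from 68.4 over 84.3 to 116 FPKM in CT, so DE lay wholly above EtOH. Pdia6 (gene 71853, chromosome 12, 17266589 to 17284785) showed another order. It ran from 119 over 135 to 178 FPKM in DE, 98.7 over 112 to 157 FPKM in DEHP, 117 over 154 to 174 FPKM in EtOH and 133 over 158 to 184 FPKM in CT, and the groups overlapped.

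Among the cofactors, Manf and Creld2 encode small ER proteins that are partly secreted under stress. Manf (gene 74840, chromosome 9, 106888753 to 106891938) ran from 47.1 over 93.4 to 124 FPKM in DE and from 33 over 49.4 to 84.9 FPKM in DEHP. It ran from 23.6 over 29.5 to 45.4 FPKM in EtOH and from 32.4 over 52.9 to 83.8 FPKM in CT, and again DE lay wholly above EtOH. Creld2 (gene 76737, chromosome 15, 88819646 to 88826681) ran from 33 over 73.3 to 98.1 FPKM in DE and from 21.3 over 30.6 to 73.4 FPKM in DEHP. It ran from 13.6 over 24.7 to 39.7 FPKM in EtOH and from 21.6 over 30.6 to 65.3 FPKM in CT. DE 6, the library with muscle transcripts, was the lone DE library within the EtOH range.

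Sdf2l1, a cofactor that keeps BiP clients from aggregating, and Dnajc3, the J-domain cochaperone P58IPK, were less spread between groups. Sdf2l1 (gene 64136, chromosome 16, 17130138 to 17132383) had medians of 76.3 FPKM in DE (51.5 to 97.5), 47.1 FPKM in DEHP (29.9 to 84.9), 51.9 FPKM in EtOH (29.2 to 80.2) and 52.1 FPKM in CT (33.7 to 92.6). Dnajc3 (gene 100037258, chromosome 14, 118937932 to 118981702) had medians of 40.6 FPKM in DE (34.7 to 52.6), 34.6 FPKM in DEHP (29.5 to 48), 39.8 FPKM in EtOH (34.5 to 49.5) and 50.6 FPKM in CT (41.2 to 64.1). Xbp1 (gene 22433, chromosome 11, 5520641 to 5525993) had medians of 78.1 FPKM in DE (59.9 to 95.6), 61.2 FPKM in DEHP (52.5 to 98.7), 97.9 FPKM in EtOH (86.4 to 118) and 72.7 FPKM in CT (63.1 to 153). The groups of all 3 genes overlapped, and the tables do not give the spliced and unspliced Xbp1 transcripts apart.

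**Figure D2:**
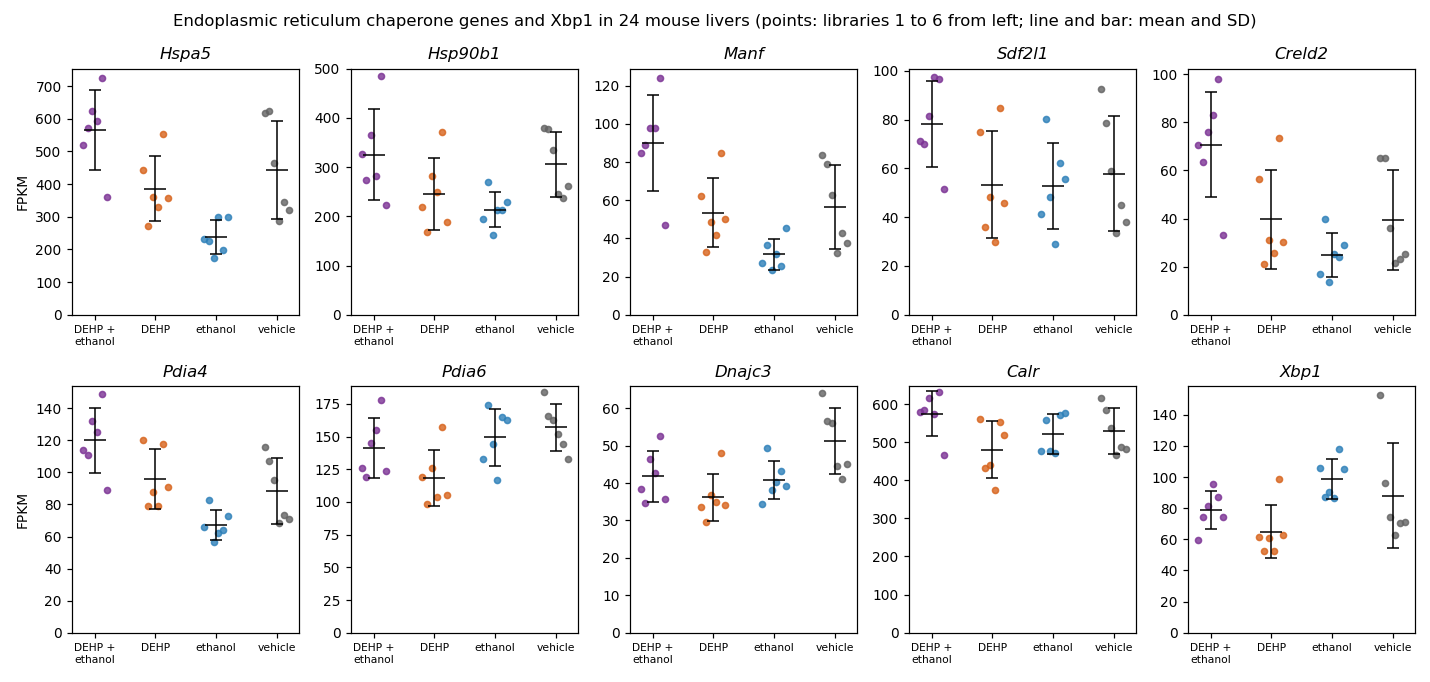
FPKM of the 10 genes in each of 24 libraries (y axis from 0; points are libraries 1 to 6 from left within DEHP + ethanol, DEHP, ethanol and vehicle; line and bar are mean and SD). Hspa5, Manf and Pdia4 in the 6 combination libraries lie above all 6 ethanol libraries.

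Within a group the genes tended to be high or low in the same libraries. In CT, libraries 1, 2 and 3 were the 3 highest for all 10 members. In DE, library 5 was the highest for Hspa5 and 7 other members, and library 6 the lowest for Hspa5 and 6 others. In DEHP, library 5 was the highest and library 2 the lowest for Hspa5 and 7 others each. EtOH showed less of this: library 3 was the lowest for Hspa5 and 4 others, and library 6 the highest for Hspa5 and 2 others. Libraries of a group therefore differed in the members as a set, and errors of different members in 1 comparison are not independent. These levels are FPKM without scaling factors, and the share of all genes with the same highest or lowest libraries was not counted. The pattern is therefore not shown to be particular to the members.

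**Figure D3:**
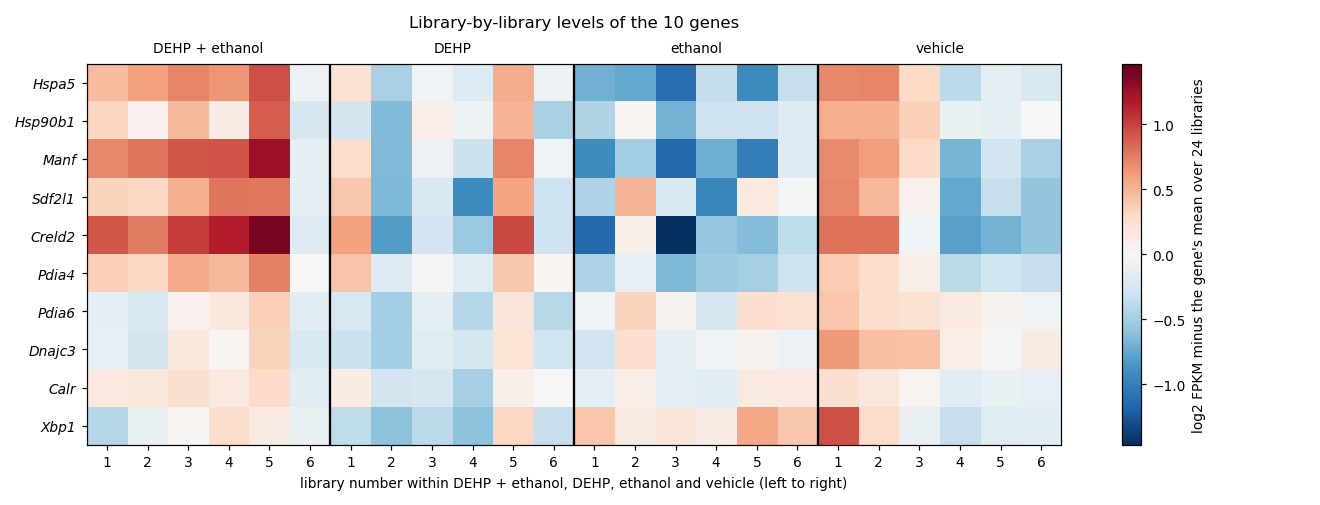
Log2 FPKM of each gene minus its mean over the 24 libraries (colour), by library number within DEHP + ethanol, DEHP, ethanol and vehicle. Vehicle libraries 1 to 3 are higher than 4 to 6 in every row, combination library 6 is paler than its group in most rows, and the lowest library in the rows of Hspa5, Manf and Creld2 is an ethanol one.

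Ethanol against vehicle. After ethanol alone, BiP and Manf transcripts were lower than after vehicle and no member was higher. Hspa5 averaged 238 ± 51.7 FPKM in EtOH and 443 ± 150 FPKM in CT (SD, n = 6 each), a log2 change of -0.83 ± 0.20 (SE; edgeR quasi-likelihood test, Benjamini-Hochberg adjusted p = 0.00362). Manf averaged 31.7 ± 8.19 FPKM in EtOH and 56.4 ± 22 FPKM in CT, a log2 change of -0.76 ± 0.25 (edgeR adjusted p = 0.0218). Both were below the CT mean in 6 of 6 EtOH libraries, and in both the groups overlapped. In bulk liver, fewer cells of a type and less RNA per cell cannot be told apart.

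Markers of other cell types also differed in this comparison. Called lower in EtOH were 2 of 6 endothelial markers (sums of 39.6 to 55.5 FPKM in EtOH and 49.8 to 105 FPKM in CT), 2 of 6 stellate cell markers (35.7 to 51.2 FPKM in EtOH and 52 to 215 FPKM in CT) and 2 of 4 bile duct markers tested. The 5 bile duct markers summed to 16.8 to 19.4 FPKM in EtOH and 23.5 to 38.8 FPKM in CT. The 1 muscle marker tested was also lower, and of 6 hepatocyte markers 1 was higher and 1 lower (57953 to 71491 FPKM in EtOH and 52863 to 68995 FPKM in CT). Their part in the result was not tested.

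These 2 of 10 members called lower compare with 14.5% of all genes called lower and 28.8% called in either direction, a share near the background. Hsp90b1 (-0.45 ± 0.18, edgeR adjusted p = 0.0579; called under 12 of 36 alternative settings, 0.0171 to 0.13), Pdia4 (-0.33 ± 0.14, 0.0851) and Dnajc3 (-0.26 ± 0.12, 0.095) had an unadjusted p below 0.05 and missed the threshold. The 95% interval of the change was -1.30 to 0.08 for Creld2, -0.62 to 0.49 for Sdf2l1, -0.25 to 0.25 for Pdia6, -0.17 to 0.27 for Calr and -0.13 to 0.61 for Xbp1. The members' median change was -0.29, beside -0.01 over all genes tested. An unadjusted p below 0.05 was found for 5 members and for 4437 of the 10697 genes tested. The call of Hspa5 held under all 36 alternative settings (-0.93 to -0.70, adjusted p 0.000269 to 0.0121). That of Manf was lost without CT 1, CT 2, EtOH 3 or EtOH 5 (adjusted p 0.0507 to 0.0605; 0.0101 to 0.0605 over the alternatives), and without CT 1 or without the 3 libraries holding muscle or pancreas transcripts Xbp1 was called higher (0.45 and 0.44).

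DEHP against vehicle. With DEHP alone, Pdia6 and Dnajc3 transcripts were lower than with vehicle, and no member was called higher. Pdia6 averaged 118 ± 21.7 FPKM in DEHP and 157 ± 18.1 FPKM in CT (log2 change -0.42 ± 0.12, edgeR adjusted p = 0.00978), below the CT mean in 5 of 6 libraries. Dnajc3 averaged 36.2 ± 6.27 FPKM in DEHP and 51.3 ± 8.93 FPKM in CT (-0.52 ± 0.12, edgeR adjusted p = 0.00206), below it in 6 of 6. These 2 of 10 compare with 11.6% of all genes called lower and 26% called in all.

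No member was called higher in DEHP by edgeR, DESeq2 or limma. The 3 members with an unadjusted p below 0.05 were Pdia6, Dnajc3 and Xbp1 (-0.45 ± 0.18, edgeR adjusted p = 0.0606), all lower. Such a p was found for 4069 of the 10697 genes tested. Hspa5 (-0.22 ± 0.20, adjusted p = 0.447), Manf (-0.09 ± 0.24, 0.809), Creld2 (-0.01 ± 0.32, 0.987) and Pdia4 (0.10 ± 0.14, 0.651) were not called. The 95% intervals were -0.63 to 0.20 for Hspa5, -0.71 to 0.04 for Hsp90b1, -0.60 to 0.41 for Manf, -0.69 to 0.67 for Creld2 and -0.20 to 0.40 for Pdia4, so sizeable changes are not left out. Hsp90b1 and Xbp1 were called lower without DEHP 5 (-0.49 and -0.61), which raised the count to 4. The calls of Pdia6 and Dnajc3 held under all 36 alternatives, with adjusted p 0.00116 to 0.0408 for Pdia6 and 0.000135 to 0.0133 for Dnajc3. In the same comparison 5 of 6 hepatocyte markers were called lower, with sums of 37850 to 46095 FPKM in DEHP and 52863 to 68995 FPKM in CT. Of other cell types, 1 of 2 adipocyte markers tested was higher (17.7 to 152 FPKM in DEHP and 7.78 to 66.8 FPKM in CT, as the sum of 5) and 1 of 2 pancreatic markers was higher. Called lower were 2 of 6 stellate cell markers (46.1 to 53.5 FPKM in DEHP and 52 to 215 FPKM in CT), 1 of 6 endothelial, 1 of 4 bile duct and the 1 muscle marker tested. Their part in the result was not tested.

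DEHP with ethanol against vehicle. In the combination the cofactors Manf and Creld2 and the foldase Pdia4 were higher than in vehicle, and Dnajc3 was lower. Manf averaged 90.1 ± 25 FPKM in DE and 56.4 ± 22 FPKM in CT (0.68 ± 0.24, edgeR adjusted p = 0.0302). Creld2 averaged 70.8 ± 21.9 FPKM in DE and 39.4 ± 20.6 FPKM in CT (0.84 ± 0.32, edgeR adjusted p = 0.042). Pdia4 averaged 120 ± 20.2 FPKM in DE and 88.6 ± 20.6 FPKM in CT (0.44 ± 0.14, edgeR adjusted p = 0.0195), above the CT mean in 6 of 6 libraries. Dnajc3 averaged 41.8 ± 6.88 FPKM in DE and 51.3 ± 8.93 FPKM in CT (-0.30 ± 0.12, edgeR adjusted p = 0.0488).

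These 3 members higher and 1 lower compare with 19.3% of all genes called higher, 17.4% lower and 36.8% in all, so the share called was near the background. Hspa5 averaged 566 ± 122 FPKM in DE and 443 ± 150 FPKM in CT (0.35 ± 0.20, edgeR adjusted p = 0.172) and Hsp90b1 325 ± 91.9 FPKM in DE and 306 ± 65.6 FPKM in CT (0.08 ± 0.18, 0.747). The call of Pdia4 was lost without CT 4, CT 6 or DE 5 (adjusted p 0.00276 to 0.0578 over the alternatives), and that of Manf also without CT 5, DE 3 or DE 4 and with the trend on gene length removed (0.00357 to 0.0792). Creld2 lost its call under 13 of 36 settings (0.00668 to 0.104), among them leaving out any of CT 3, 4, 5 or 6 or DE 1, 2, 3, 4 or 5. Dnajc3 lost its call under 18 (0.0148 to 0.453), among them leaving out any of CT 1, 2 or 3, DE 1, 2, 4 or 6, DEHP 1, or EtOH 4, 5 or 6. Without CT 1, DE 6 and DEHP 6 the rises were larger, at 0.92 for Manf, 1.16 for Creld2 and 0.57 for Pdia4, Hspa5 was called as well (0.54), and Dnajc3 was not (-0.21).

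Here too 5 of 6 hepatocyte markers were called lower, with sums of 39428 to 45055 FPKM in DE and 52863 to 68995 FPKM in CT. Called higher were 1 of 2 adipocyte markers (24.5 to 124 FPKM in DE and 7.78 to 66.8 FPKM in CT, as the sum of 5) and 1 of 3 plasma cell markers (91.1 to 115 FPKM in DE and 73.6 to 94.7 FPKM in CT, as the sum of 4). Of the pancreatic, endothelial, bile duct and red cell markers 1 each was called lower, of 2, 6, 4 and 4 tested. Their part in the result was not tested.

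DEHP with ethanol against ethanol. Hspa5, Hsp90b1, Manf, Creld2 and Pdia4 transcripts were higher in the combination than with ethanol alone. The EtOH libraries are the same as in the comparison of ethanol with vehicle. Hspa5 averaged 566 ± 122 FPKM in DE and 238 ± 51.7 FPKM in EtOH, a log2 change of 1.18 ± 0.20 (n = 6 each, edgeR adjusted p = 6.82e-05). Manf averaged 90.1 ± 25 FPKM in DE and 31.7 ± 8.19 FPKM in EtOH (1.44 ± 0.25, edgeR adjusted p = 7.68e-05), and Creld2 70.8 ± 21.9 FPKM in DE and 24.8 ± 9.23 FPKM in EtOH (1.45 ± 0.33, edgeR adjusted p = 0.00153). Pdia4 averaged 120 ± 20.2 FPKM in DE and 67.3 ± 9.24 FPKM in EtOH (0.76 ± 0.14, edgeR adjusted p = 0.000233), and Hsp90b1 325 ± 91.9 FPKM in DE and 213 ± 35.8 FPKM in EtOH (0.54 ± 0.18, edgeR adjusted p = 0.0256). All 5 were above the EtOH mean in 6 of 6 DE libraries.

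These 5 of 10 members called higher compare with 15.1% of all genes called higher and 27.8% called in all, and the 3 members whose groups did not overlap (Hspa5, Manf and Pdia4) with 15.7% of all genes. The members' median change was 0.52, beside 0.02 over all genes. An unadjusted p below 0.05 was found for 6 members and for 4098 of the 10697 genes tested. No member was called lower by edgeR, DESeq2 or limma; Xbp1, lower in DE at 78.9 ± 12.3 FPKM against 99 ± 12.9 FPKM in EtOH, had an unadjusted p below 0.05 and missed the threshold (-0.40 ± 0.18, edgeR adjusted p = 0.0916). Its call appeared when the 2 groups were fitted alone, without CT 1, or with the trend on gene length removed (adjusted p 0.0119 to 0.192 over the alternatives). The 95% intervals of Pdia6 (-0.40 to 0.09), Dnajc3 (-0.28 to 0.21) and Calr (-0.15 to 0.29) left out changes of the size seen for Hspa5, while that of Sdf2l1 (-0.06 to 1.05) did not leave out that of Hsp90b1.

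The calls of Hspa5, Manf, Creld2 and Pdia4 held under all 36 alternatives, and that of Hsp90b1 was lost without DE 3, DE 5, EtOH 1 or EtOH 3 (adjusted p 0.00673 to 0.103 over the alternatives). Without the 3 libraries with other tissues the changes were 1.28 for Hspa5, 1.57 for Manf, 1.59 for Creld2, 0.84 for Pdia4 and 0.63 for Hsp90b1. All 6 hepatocyte markers were called lower in this comparison, with sums of 39428 to 45055 FPKM in DE and 57953 to 71491 FPKM in EtOH. Both adipocyte markers tested were called higher, and the 5 on the list summed to 24.5 to 124 FPKM in DE and 3.3 to 7.35 FPKM in EtOH. Among them Fabp4 had medians of 37.5 FPKM in DE and 5.86 FPKM in EtOH, while Adipoq was at 0 in 19 of the 24 libraries, Plin1 in 20 and Retn in 19. The 1 muscle marker tested and 1 of 6 stellate cell markers were higher (stellate sums of 50.1 to 181 FPKM in DE and 35.7 to 51.2 FPKM in EtOH), and 1 of 2 pancreatic and 1 of 4 red cell markers were lower. The part of these cell types in the result was not tested.

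Plasma cells also hold much of these chaperones. The 4 plasma cell markers found summed to 91.1 to 115 FPKM in DE and 70.1 to 93.8 FPKM in EtOH, nearly all of it Txndc5, itself an ER foldase; 1 of the 3 tested was called higher, while Jchain and Mzb1 reached at most 2.19 and 1.39 FPKM in any library and Mzb1 was at 0 in 7. The part of plasma cells was not tested.

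DEHP with ethanol against DEHP. With DEHP in both groups, all 10 members had a higher estimate with ethanol, and none passed the threshold. The largest changes were 0.85 ± 0.32 for Creld2 (edgeR adjusted p = 0.347), 0.77 ± 0.24 for Manf (0.256) and 0.57 ± 0.20 for Hspa5 (0.311), and the smallest was 0.22 ± 0.12 for Dnajc3 (0.502). The members' median was 0.38, beside 0.00 over all genes. Hspa5 averaged 566 ± 122 FPKM in DE and 386 ± 98.5 FPKM in DEHP, and 5 of 6 DE libraries lay above the DEHP mean.

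The background here was very low, since edgeR called 13 of 10697 genes (0.122%), 0.0467% higher and 0.0748% lower, and the 0 of 10 members called is read against that. An unadjusted p below 0.05 was found for 8 members, all except Dnajc3 and Xbp1, and for 1159 of all genes. DESeq2 and limma likewise called 0 members. The 95% intervals ran from 0.15 to 0.98 for Hspa5, 0.26 to 1.27 for Manf, 0.18 to 1.52 for Creld2 and 0.05 to 0.49 for Calr. Because the members moved together by library, the shared sign of the 10 estimates is not 10 separate observations.

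The interaction: ethanol with DEHP against ethanol without it. The difference between the 2 ethanol changes (DE minus DEHP, less EtOH minus CT) tests whether ethanol went with another change in these genes when DEHP was given. It was positive for all 10 members and called for 4. Hspa5, with ethanol changes of 0.57 with DEHP and -0.83 without, had an interaction of 1.40 ± 0.28 (log2; edgeR adjusted p = 0.00411). Manf, with 0.77 and -0.76, had 1.53 ± 0.34 (edgeR adjusted p = 0.00883). Hsp90b1, with 0.42 and -0.45, had 0.87 ± 0.25 (edgeR adjusted p = 0.0372), and Pdia4, with 0.34 and -0.33, had 0.67 ± 0.20 (edgeR adjusted p = 0.0484). The ethanol change with DEHP was called for none of these 4 genes. Without DEHP it was called for Hspa5 and Manf and not for Hsp90b1 and Pdia4.

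These 4 of 10 members compare with 3.32% of all genes called higher and 6.41% called in all. The median of the members was 0.65, beside 0.01 over all genes. Creld2 had an estimate as large as those of Hspa5 and Manf with a wider error (1.46 ± 0.46, edgeR adjusted p = 0.0544), and Dnajc3 had 0.48 ± 0.17 (0.078). The 95% intervals were -0.15 to 1.41 for Sdf2l1, -0.08 to 0.61 for Pdia6, -0.09 to 0.54 for Calr and -0.47 to 0.57 for Xbp1. No member was called lower by edgeR, DESeq2 or limma, beside 3.09% of all genes in edgeR, and the 6 with an unadjusted p below 0.05 were all positive. Of the 10697 genes tested, 2504 had such a p.

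The calls of Hspa5 and Manf held under all 35 alternatives fitted, with changes of 1.26 to 1.52 (adjusted p 3.95e-05 to 0.0109) for Hspa5 and 1.39 to 1.70 (0.00176 to 0.02) for Manf. Hsp90b1 was not called under 14 of the 35 (changes of 0.73 to 1.02) and Pdia4 under 20 (0.58 to 0.75). Both calls were lost together without any of CT 1, 2 or 3, DE 1, 3 or 5, DEHP 2 or 6, or EtOH 1, 3 or 5, which left 2 members called. Hsp90b1 also lost its call without DEHP 1, and Pdia4 without DE 4, DEHP 3 or 4, or EtOH 4 or 6. The call of Pdia4 was also lost with upper-quartile factors (adjusted p = 0.0526) and with the trend on gene length removed (0.0531), while Creld2 gained one under 10 settings. Over the alternatives their adjusted p ran from 0.00931 to 0.0825 for Hsp90b1 and from 0.0212 to 0.0916 for Pdia4. Without CT 1, DE 6 and DEHP 6 the interactions were 1.38, 1.52, 0.85 and 0.66 for Hspa5, Manf, Hsp90b1 and Pdia4, as large as with them, and the first 2 were called. In this contrast the 1 tested muscle marker and 2 of 6 stellate cell markers were called higher and 1 of 4 red cell markers lower with all libraries, and their part in the result was not tested.

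**Figure D4:**
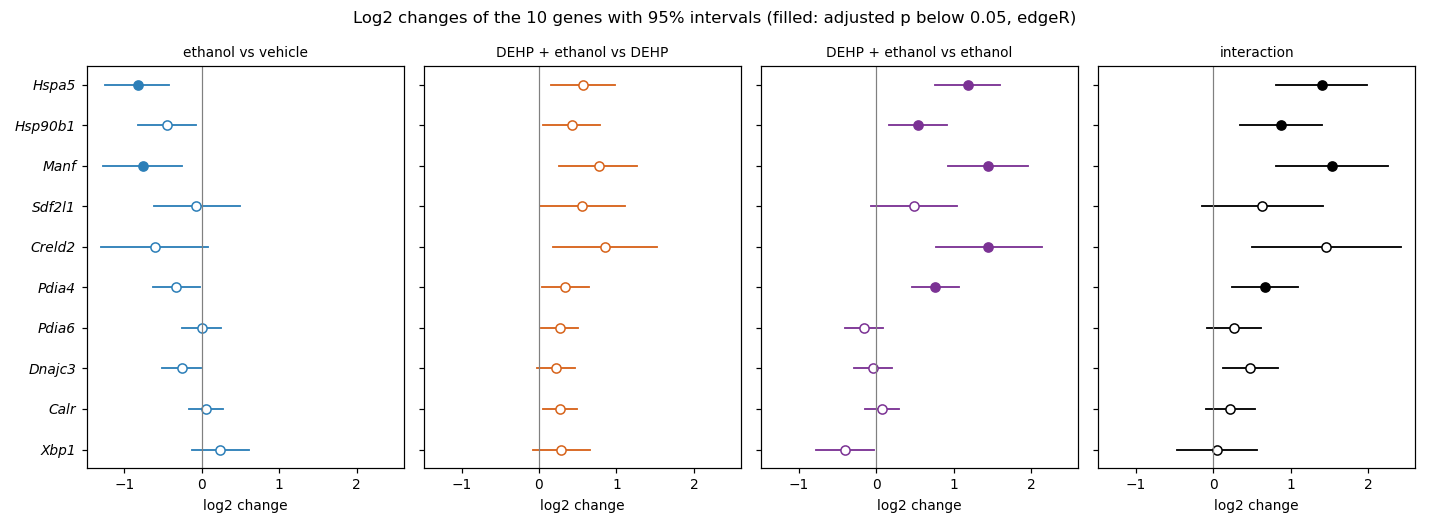
Log2 changes of the 10 genes with 95% intervals in 4 comparisons (x axis; filled points have an edgeR adjusted p below 0.05). Hspa5 and Manf lie left of 0 for ethanol against vehicle and right of 0 in the other 3 panels, and the intervals of Sdf2l1, Pdia6, Calr and Xbp1 span 0 in the interaction.

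The other genes of the pathway were taken from 5 lists, also chosen with earlier results of these data known, of which 73 genes were tested. Sensors of the unfolded protein response and their proteases, 6 genes, gave no interaction call. Ern1, which encodes IRE1, was called lower than in CT in each treated group, though not under every setting for DEHP. It averaged 7.11 ± 0.789 FPKM in DE, 9.87 ± 1.23 in DEHP, 8.45 ± 1.89 in EtOH and 13 ± 2.9 in CT, with log2 changes of -0.88 ± 0.13 for DE (edgeR adjusted p = 1.13e-05), -0.42 for DEHP (0.0184) and -0.56 for EtOH (0.00272). The calls for DE and EtOH held under all 36 alternatives. That for DEHP was lost in both limma fits (adjusted p = 0.053 and 0.0573) and without CT 1, DE 6 and DEHP 6 (-0.35, 0.0744). The 3 comparisons share the CT libraries. Atf6 was called lower in DEHP than in CT (-0.28 ± 0.09, edgeR adjusted p = 0.0235), a call lost under 6 of 36 alternatives, among them leaving out CT 3 or DEHP 2 and removing the trend on gene length (-0.11, 0.285). Atf6 in DE against CT missed the threshold (-0.22, edgeR adjusted p = 0.0615) but was called under 10 of 36 alternatives, among them leaving out CT 1, DE 6 and DEHP 6 (-0.27, 0.0465). Eif2ak3, the gene of PERK, was called in no comparison (-0.16 to 0.36).

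Of 20 other ER chaperones and foldases, 4 were higher and 2 lower in DE than in EtOH, and 2 had a positive interaction. Of all genes, 15.1% were called higher and 12.7% lower in DE than in EtOH, and 3.32% had a positive interaction. The share of this list called in DE against EtOH was thus near the background. Hyou1, an Hsp110-type partner of BiP, averaged 73.3 ± 15.1 FPKM in DE, 51 ± 17.3 in DEHP, 34.5 ± 6.38 in EtOH and 62.2 ± 27.3 in CT. Its log2 change was 1.03 ± 0.24 for DE against EtOH (edgeR adjusted p = 0.0018), -0.79 ± 0.24 for EtOH against CT (0.0145), and its interaction 1.34 ± 0.33 (0.0168). Dnajb9, a J-domain cochaperone of BiP, had 1.00 ± 0.18 for DE against EtOH (edgeR adjusted p = 0.000159) and an interaction of 0.94 ± 0.25 (0.0278). Its interaction call was lost without CT 1, DE 3, DEHP 2 or EtOH 5 (0.79 to 0.90, adjusted p 0.0509 to 0.0518; 0.00732 to 0.0518 over the alternatives). Dnajb11, another such cochaperone, was called in no comparison (interaction 0.44 ± 0.20, edgeR adjusted p = 0.173), and Ppib, a cyclophilin of the ER, was lower in DE than in EtOH (-0.38 ± 0.09).

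Genes of ER-associated degradation, which sends misfolded proteins to the proteasome, gave 6 higher and 1 lower of 16 in DE against EtOH (all genes 15.1% and 12.7%). Positive interactions were called for 4 (all genes 3.32%). Syvn1, the ubiquitin ligase HRD1, averaged 49.3 ± 13.2 FPKM in DE, 38.6 ± 10 in DEHP, 23.5 ± 1.63 in EtOH and 37.9 ± 12 in CT, with an interaction of 0.99 ± 0.26 (edgeR adjusted p = 0.0224). Ube2g2, a ubiquitin-conjugating enzyme of this pathway, had 0.58 ± 0.12 (edgeR adjusted p = 0.00364). Herpud1, a stress-induced component of the ligase complex, behaved otherwise. It averaged 163 ± 33.9 FPKM in DE, 173 ± 29.7 in DEHP, 150 ± 39.3 in EtOH and 312 ± 50.5 in CT, and no treated library of any group overlapped CT. Its interaction of 0.92 ± 0.23 (edgeR adjusted p = 0.0176) is thus a fall with ethanol without DEHP (-0.99) and no call with it (-0.07, edgeR adjusted p = 0.908).

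Of 23 genes of ER translocation and glycosylation, 7 were higher and 2 lower in DE than in EtOH (all genes 15.1% and 12.7%). A positive interaction was called for 5 (all genes 3.32%). Among them were Spcs2 of the signal peptidase (0.66 ± 0.12, edgeR adjusted p = 0.00198), Stt3b of the oligosaccharyltransferase (0.45 ± 0.11, 0.0176) and Tram1 of the translocon (0.51 ± 0.13, 0.0237). The PERK and ATF4 branch, 8 genes tested, showed no such pattern. Against CT, Atf4 was called higher in EtOH (0.33 ± 0.10, edgeR adjusted p = 0.0166) and Ddit3 lower in EtOH (-0.57 ± 0.19, edgeR adjusted p = 0.029). Sesn2 was called higher in DEHP than in CT (0.47 ± 0.15, edgeR adjusted p = 0.0206) and in DE than in EtOH (0.55 ± 0.15, edgeR adjusted p = 0.00755). Trib3, a pseudokinase induced by ATF4, was higher than CT in every treated group, with 7.36 ± 3.55 FPKM in DE, 6.76 ± 1.9 in DEHP, 8.6 ± 1.51 in EtOH and 3.28 ± 0.552 in CT. Its interaction was negative (-1.31 ± 0.33, edgeR adjusted p = 0.0188), but without CT 1, DE 6 and DEHP 6 no gene of the 5 lists had a negative interaction call. Over the 5 lists, 11 of 73 genes had a positive and 1 a negative interaction, with a median of 0.23 beside 0.01 over all genes, and 18 were higher and 5 lower in DE than in EtOH. Of all genes, 3.32% had a positive and 3.09% a negative interaction, and 15.1% were higher and 12.7% lower in DE than in EtOH. The 18 and 5 genes together were near the 27.8% of all genes called in that comparison.

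**Figure D5:**
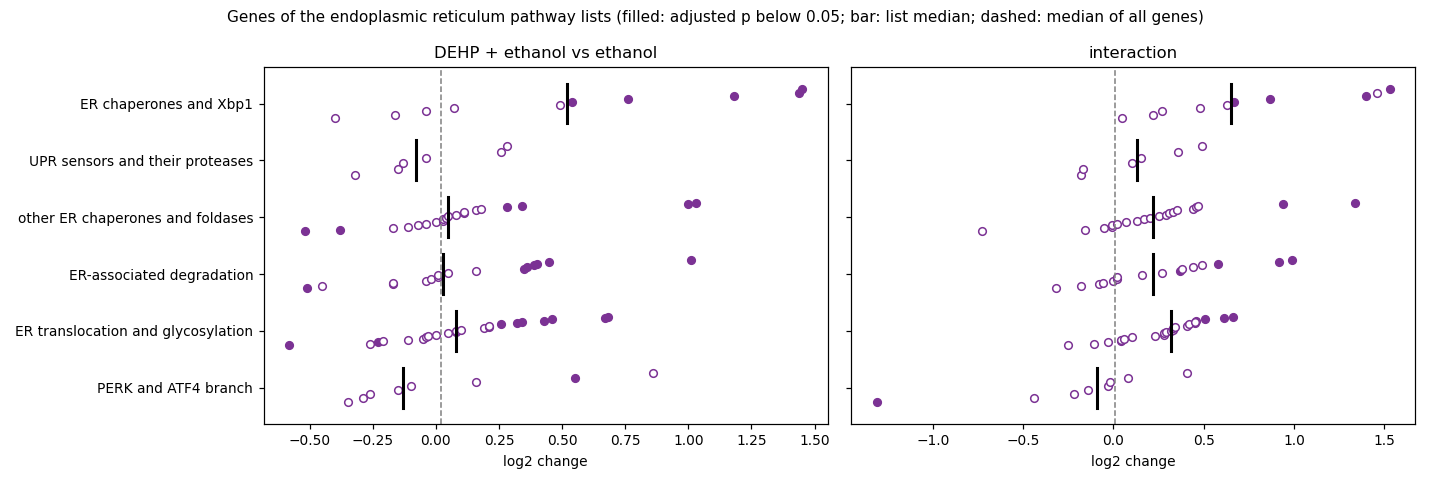
Log2 changes of the members and of 5 lists of other ER pathway genes for DEHP + ethanol against ethanol (left) and the interaction (right); each point is a gene, filled where the edgeR adjusted p was below 0.05, bars are list medians and the dashed line the median of all genes. The members' medians are 0.52 and 0.65, and those of the other lists lie between -0.13 and 0.32.

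The genes most like Hspa5 were ranked by the root-mean-square difference of their centred log2(FPKM + 1) from that of Hspa5 over the 24 libraries, among the 6472 tested genes that averaged 5 FPKM or more. Hspa5 itself varied by 0.57 on this scale, which is also the difference of a gene that did not vary at all. Hyou1 ranked 1 (difference 0.15), Manf 2 (0.18), Hsph1 3 (0.22), Sec23b 4 and Tmed3 5, and Alg12 6 (0.26 each). Of the members, Pdia4 ranked 7 (0.26), Hsp90b1 22 (0.33), Creld2 30 (0.35), Sdf2l1 289 (0.46), Calr 512 (0.49), Dnajc3 974 (0.51), Pdia6 2664 (0.57) and Xbp1 5041 (0.66). The ranks thus depend on how far a gene varied as well as on its pattern. Tmed3, a cargo receptor for ER export, averaged 27.8 ± 6.27 FPKM in DE, 20.6 ± 3.83 in DEHP, 10.9 ± 1.95 in EtOH and 16.5 ± 3.91 in CT. Hsph1, a cytosolic Hsp110 chaperone, averaged 19.9 ± 3.4 FPKM in DE, 13.9 ± 3.54 in DEHP, 8.73 ± 1.77 in EtOH and 19.4 ± 7.44 in CT. These points share libraries and depth, and the ranks are a description.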

How the data were processed

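Per the labels' protocols, libraries were made with an Illumina TruSeq kit from 1 ug of Trizol-extracted total RNA. Each deposited table gives, per the file headers, the authors' expected count (reads estimated per gene, not normalised) and the authors' FPKM for every listed gene. The submitters' processing notes name Cuffdiff, mm10 and GRCm38. Which programs aligned reads and made the counts, and how strand and shared reads were treated, is not given in the sources used here.

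Counts were rounded and fitted for all 24 libraries at once in edgeR 4.0.16 under R 4.3.3 (TMM factors, quasi-likelihood F test, 20 residual degrees of freedom). Genes at 1 FPKM or more in 6 or more libraries entered, 10697 in all. The Benjamini-Hochberg adjustment ran over all of them, calls were made at an adjusted p below 0.05, and percentages of genes called refer to them. Levels are FPKM as deposited. Standard errors are the unshrunken change over the square root of F, and 95% intervals rest on them. The fit was tested on simulated data. Alternatives were other scaling factors or none, DESeq2 1.42.0, limma 3.58.1 on log2(FPKM + 1) and log2(FPKM + 0.1), no filter or 5 FPKM, fewer groups, a replicate block, libraries left out, and a fit free of the gene length trend. Coordinates and promoters are those of RefSeq on GRCm38.p6.

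The members and lists were chosen with earlier results of these data known. Named are all members, Ern1, Atf6, Eif2ak3, Hyou1, Dnajb9, Dnajb11, up to 3 called genes of smallest adjusted p per list and comparison, and the 5 other genes most like Hspa5.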

Additional observations from a re-analysis of the deposited data

Results flagged for a closer look

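The ethanol change with DEHP minus that without it differed from 0 by the edgeR interaction test for 4 members and for 9 other ER pathway genes named here. The differences (log2) were 1.40 for Hspa5, 0.87 for Hsp90b1, 1.53 for Manf and 0.67 for Pdia4, then 1.34 for Hyou1, 0.94 for Dnajb9, 0.58 for Ube2g2, 0.92 for Herpud1, 0.99 for Syvn1, 0.66 for Spcs2, 0.45 for Stt3b, 0.51 for Tram1 and -1.31 for Trib3.

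Among 44 groups of values examined, 4 held a library far from the rest, where chance flags about 1 in 20. Calr was at 466 FPKM in DE 6 and between 575 and 632 FPKM in the other DE libraries. Xbp1 was at 98.7 FPKM in DEHP 5 and between 52.5 and 63.1 FPKM in the other DEHP libraries, and at 153 FPKM in CT 1 and between 63.1 and 96.2 FPKM in the other CT libraries. DE 6 and CT 1 are the libraries with muscle transcripts, whose part in these values was not tested. A transcript length is also given per gene and library. For Hspa5, Pdia6 and Xbp1, each with more than 1 transcript listed, it can differ between libraries. How it was computed is not given in the sources used here. That of Xbp1 was 2255.6 bases in EtOH 4 and between 2261.6 and 2263.0 bases in the other EtOH libraries. It was 2261.1 to 2263.3 bases in DE, 2261.4 to 2263.5 bases in DEHP and 2261.2 to 2263.0 bases in CT. The lowest Pdia6 lengths were 2124.0 bases in DEHP 1, 2124.1 bases in EtOH 1 and 2121.7 bases in CT 5. The second lowest in these groups were 2125.0, 2125.0 and 2124.0 bases.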

How the results depend on the processing

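Counts of called members moved as follows. EtOH against CT had 2 lower, but 5 without scaling factors, 4 with a 5 FPKM filter, and 1 to 4 leaving out single libraries; its 0 higher became 1 without CT 1, DE 6 and DEHP 6, and 0 to 1 leaving out single libraries. DEHP against CT had 2 lower, and 2 to 4 leaving out single libraries (4 without DEHP 5). DE against CT had 3 higher, but 1 with the length trend removed and 0 to 3 leaving out single libraries (0 without CT 4, CT 6 or DE 5; 1 without CT 5, DE 3 or DE 4). Its 1 lower became 0 without scaling factors, with limma at either pseudocount, with no filter, with only the compared groups in the fit, without the 3 libraries together and with the length trend removed, and was 0 to 1 leaving out single libraries. DE against EtOH had 0 lower, but 1 with only the compared groups, 1 with the length trend removed and 0 to 1 leaving out single libraries (1 without CT 1); its 5 higher were 4 to 5. The interaction had 4 higher, but 2 with no filter, 2 without the 3 libraries and 2 to 6 leaving out single libraries. DESeq2 also called Creld2 and Dnajc3 in the interaction (DESeq2 adjusted p = 0.0484 and 0.0491), and upper-quartile factors lost the call of Pdia4. In EtOH against CT, DESeq2 called Hsp90b1 lower (DESeq2 adjusted p = 0.0391). In DE against CT it did not call Creld2 (DESeq2 adjusted p = 0.0525).

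For the other pathway genes, EtOH against CT had 7 higher, but 4 without scaling factors, 4 with limma at either pseudocount and 7 to 11 leaving out single libraries. DEHP against CT had 4 higher, but 2 with a 5 FPKM filter and 2 to 5 leaving out single libraries. DE against CT had 6 lower, but 11 with a 5 FPKM filter. DE against DEHP had 0 higher, but 2 in DESeq2, 1 without the 3 libraries and 0 to 1 leaving out single libraries. DE against EtOH had 5 lower, but 3 without scaling factors, 9 with a 5 FPKM filter, 9 with the length trend removed and 3 to 7 leaving out single libraries. The interaction had 11 higher (7 to 15 leaving out single libraries; 7 without CT 1, DE 3, DE 5, DEHP 2 or EtOH 5) and 1 lower, but 2 with upper-quartile factors, DESeq2 or the length trend removed, 0 without the 3 libraries and 1 to 2 leaving out single libraries.

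No result changed direction while called under either setting. Most of the 49 sign changes were of changes near 0. Atf6 in DE against CT was an exception, with -0.29 to 0.03 over the alternatives and a call under 10 of 36, and its direction depended on the length trend. In EtOH against CT they were Sdf2l1 (0.09 without the 3 libraries; -0.21 to 0.10 leaving out single libraries), Calr (-0.03 without scaling factors, -0.02 in limma), Dnajb11 (0.01 with upper-quartile factors and with the replicate block, 0.07 without the 3 libraries; -0.09 to 0.08 leaving out single libraries) and Atf6 (0.16 with the length trend removed). In DEHP against CT they were Manf (0.05 without the 3 libraries; -0.27 to 0.04 leaving out single libraries), Sdf2l1 (0.06; -0.31 to 0.04), Creld2 (0.02 in limma, 0.23 without the 3 libraries; -0.27 to 0.20) and Dnajb9 (-0.03 to 0.20 leaving out single libraries). In DE against CT they were Hsp90b1 (-0.07 to 0.17 leaving out single libraries), Xbp1 (0.06 without the 3 libraries; -0.24 to 0.03 leaving out single libraries) and Atf6 (0.03 with the length trend removed). In DE against EtOH it was Dnajc3 (0.04 without scaling factors, 0.03 in limma; -0.11 to 0.01 leaving out single libraries). In the interaction they were Xbp1 (-0.14 without the 3 libraries; -0.17 to 0.20 leaving out single libraries), Ern1 (-0.02 without the 3 libraries) and Atf6 (-0.01 with the length trend removed).

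Over all genes, EtOH against CT had 1524 higher and 1555 lower, but 930 and 2061 without scaling factors, 1090 and 1780 with limma, and 1681 and 1014 with the length trend removed. DE against EtOH had 1620 higher and 1356 lower, but 2198 and 915 without scaling factors and 2110 and 942 with limma. DE against DEHP had 5 higher and 8 lower, but 19 and 25 in DESeq2, 2 and 5 in limma on log2(FPKM + 1), 2 and 4 on log2(FPKM + 0.1), 4 and 14 with a 5 FPKM filter, 0 and 1 with no filter, 1 and 5 with only the compared groups, 4 and 4 without the 3 libraries, 1 and 1 with the length trend removed, and 0 to 8 and 0 to 12 leaving out single libraries. The interaction had 355 higher and 331 lower, but 447 and 203 without scaling factors, 326 and 215 and 333 and 211 with limma, 308 and 521 with the length trend removed, 196 and 169 without the 3 libraries, and 248 to 440 and 208 to 408 leaving out single libraries. The causes of these moves were not tested.

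Same-numbered libraries did not deviate together (36 pairs, r from -0.206 to 0.212, 7 over 0.1), so the numbers were not taken to pair samples. With the replicate block the interaction was 1.36 for Hspa5 and 1.49 for Manf, and no count of called members changed; over all genes DE against DEHP had 2 higher and 3 lower. At these depths every member had at least 128 expected counts, so the spread between libraries and not counting limits what can be said of them.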

Other observations

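Other genes of the ER lists changed against vehicle without an interaction call. Canx, the membrane-bound partner of calreticulin, was lower than CT in each treated group, with log2 changes of -0.21 in DE (edgeR adjusted p = 0.0441), -0.27 in DEHP (0.0176) and -0.30 in EtOH (0.00935). Sec63, a translocon component that recruits BiP, was also lower in each, at -0.41 in DE (edgeR adjusted p = 0.000242), -0.37 in DEHP (0.000944) and -0.37 in EtOH (0.00145). Vcp, the ATPase that pulls proteins out of the ER membrane for degradation, was higher in DE (0.45, edgeR adjusted p = 1.05e-06) and DEHP (0.36, 4.13e-05). Os9, a lectin of the same pathway, was lower in DE (-0.32, edgeR adjusted p = 0.00353) and DEHP (-0.33, 0.00451). Fkbp11, an ER prolyl isomerase, was higher in EtOH (0.72, edgeR adjusted p = 0.00609). These comparisons share the CT libraries.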
